A study of Homo sapiens with 24 samples.

Results

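The genes described here are 45 genes of G2 phase and mitosis, chosen from a list of gene names: cyclins and CDK1, mitotic kinases, spindle checkpoint genes, regulators of the anaphase-promoting complex, centromere and kinetochore genes, the chromosomal passenger complex, mitotic kinesins, and spindle and cytokinesis genes. The choice was made with earlier results of these data known, so counts over these genes are descriptions. All 45 were measured in each of the 4 cell lines, among 16795 genes measured in at least 1 line and 11408 measured in all 4. Total RNA was sequenced from the small-cell lung cancer lines H187, H209, H82 and SHP-77 after treatment with 0.1 nM lurbinectedin or its vehicle DMSO for 24 h. H187 and H209 are the ISL1-high lines of the design, and H82 and SHP-77 the ISL1-low lines; ISL1 is a LIM homeodomain transcription factor. The 8 groups, with 3 libraries each, were thus a lurbinectedin and a DMSO group of each line. The labels name no genetic change, and each line stands for its own culture, so a difference between lines cannot be told apart from anything else in which these lines differ.

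Mitotic genes are transcribed in a wave that begins in S phase and peaks in G2 and M. In the first part of the cycle the DREAM complex holds them down, and later B-MYB and FOXM1, bound through the MuvB core, activate them. The core contacts an element called CHR near the transcription start, and NF-Y binds CCAAT boxes close by. Their products start mitosis (cyclin B with CDK1, PLK1, Aurora A), attach chromosomes to the spindle and check that attachment (CENP proteins, BUB1, MAD2), and then split the cell (CDC20, separase, kinesins of the midzone). Lurbinectedin is an alkylating drug that binds guanine in the minor groove of DNA and acts on actively transcribed genes.

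Libraries held 24226553 to 36415190 counts, and single members were covered by 407 counts (CDCA3 in an SHP-77 library) to 54402 counts (TOP2A in an H187 library). Of 6 small-cell neuroendocrine markers, 5 were measured in H187, H209 and H82 and 4 in SHP-77, with CHGA not analysed here. Single markers differed between lines. INSM1 averaged 489 CPM with lurbinectedin and 568 CPM with DMSO in H187, but 14.4 CPM with lurbinectedin and 11.9 CPM with DMSO in H82. NEUROD1 averaged 276 CPM with lurbinectedin and 268 CPM with DMSO in H82. It averaged 0.953 CPM with lurbinectedin and 0.809 CPM with DMSO in H187, and 11.7 CPM with lurbinectedin and 13.4 CPM with DMSO in H209. The summed fibroblast, leukocyte and squamous markers stayed at or below 9.28 CPM in every library. Levels are given in CPM, counts scaled to the TMM-corrected size of the library. ISL1 averaged 221 CPM with lurbinectedin and 252 CPM with DMSO in H187 and 173 CPM with lurbinectedin and 215 CPM with DMSO in H209. In the ISL1-low lines it averaged 3.75 CPM with lurbinectedin and 3.62 CPM with DMSO in H82, and 0.680 CPM with lurbinectedin and 0.912 CPM with DMSO in SHP-77. Among the DMSO libraries of H82, replicate 3 changes how many members pass the test, as given with that line.

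With lurbinectedin, mitotic genes fell in both ISL1-high lines. In H187, 37 of 45 members were lower and none was higher at an adjusted p under 0.05 (edgeR quasi-likelihood test, Benjamini-Hochberg over all genes), where 12.7% of all genes tested were lower and 12.2% higher. In H209, 42 of 45 were lower and none was higher, where 22.5% of all genes were lower and 22.7% higher. The median log2 fold change over the 45 was -0.27 in H187 and -0.40 in H209, and that of all genes was 0.00 in both lines. TMM scaling places the typical gene near 0, so all these changes are relative. A shift shared by all genes would not be seen. Member by member, 39 had all 3 lurbinectedin libraries under all 3 DMSO libraries in H187 (19.3% of all genes did) and 41 in H209 (25.9% of all genes did). These are bulk libraries, so fewer cells in G2 and M and less mitotic RNA per cell cannot be told apart.

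**Figure D1:**
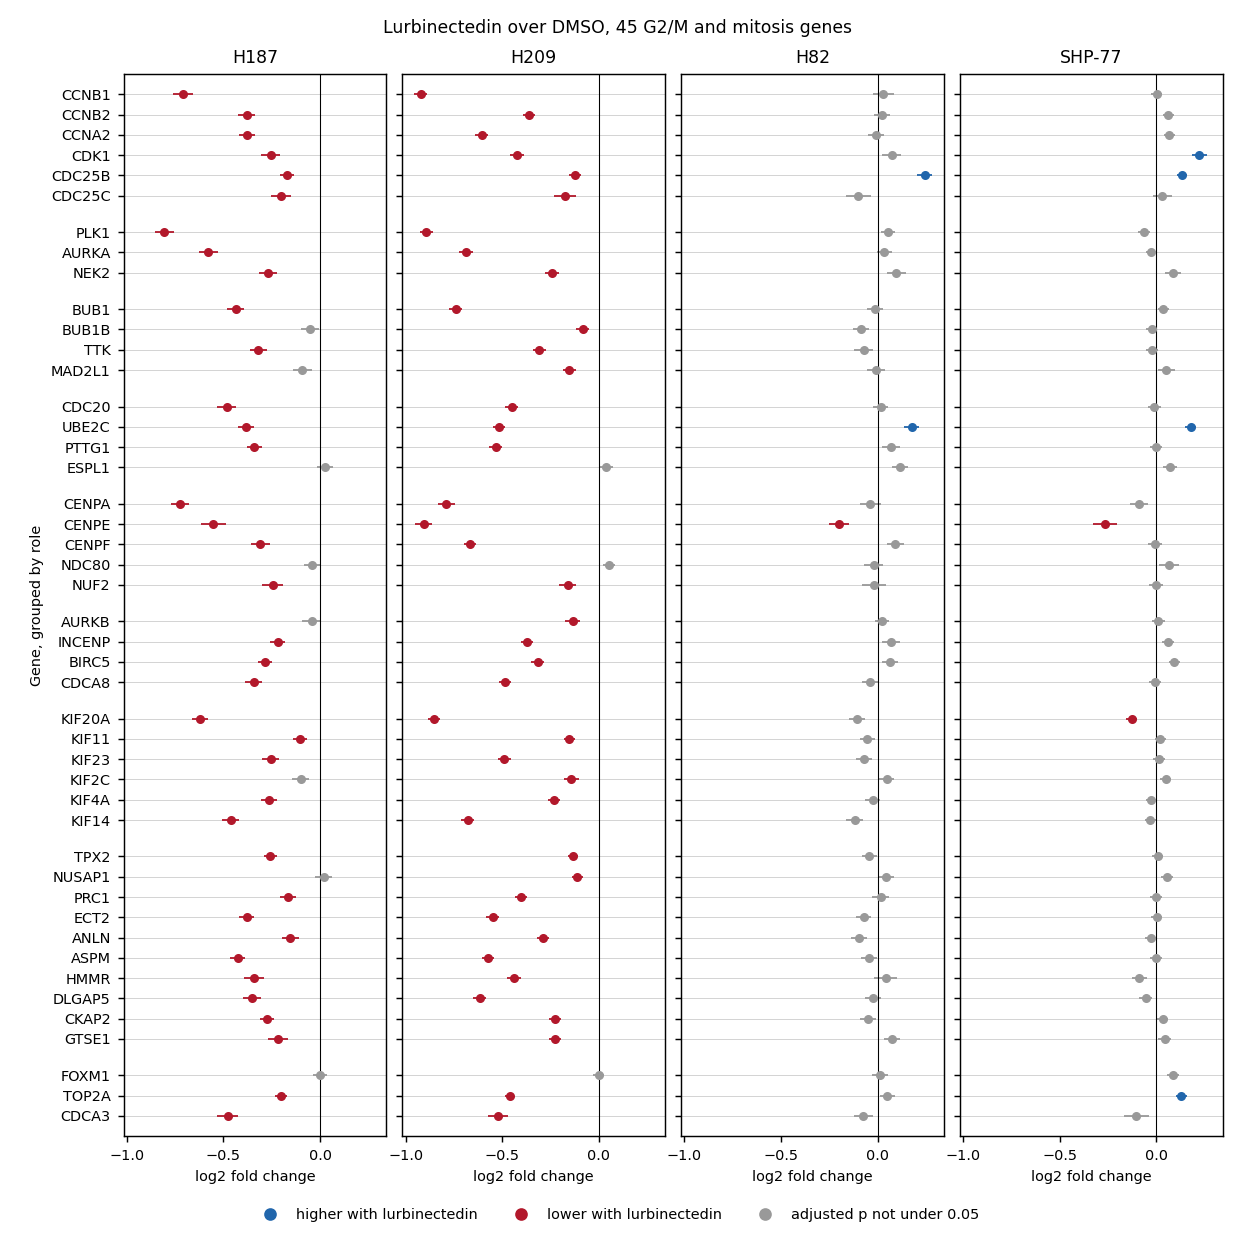
Log2 fold change of each of the 45 genes, lurbinectedin over DMSO, in the 4 lines (x axis, with bars of 1 standard error; genes on the y axis in blocks by role). Red points were lower and blue points higher at an adjusted p under 0.05; H187 has 37 red points and H209 has 42, against 1 in H82 and 2 in SHP-77.

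Promoter sequences are shown for 9 members, 7 of which fell in both lines, with BUB1B, called in H209 alone, and ESPL1, called in neither, to set their cell cycle elements side by side. RefSeq promoter windows (GRCh38.p14, 250 bases before to 50 after the start) were at hand for 39 members; AURKA, TTK, UBE2C, BIRC5, TPX2 and FOXM1 had no entry. The CHR letters TTTGAA or TTCGAA, read on either strand, were found in 30 of 39 members (76.9%), against 14.7% of 8680 other genes measured in all lines. CCAAT, read on either strand (ATTGG on the other), was in 32 of 39 (82.1%), against 44.2% of the others, and both elements were in 26 of 39 (66.7%), against 6.2%. E2F letters (TTTCGCGC or TTTGGCGC, either strand) were in 2 of 39 (5.13%), against 2.63%. The 130 bases before the annotated start follow, 5′ to 3′ along the gene, with CHR and CCAAT letters in capitals.
PLK1: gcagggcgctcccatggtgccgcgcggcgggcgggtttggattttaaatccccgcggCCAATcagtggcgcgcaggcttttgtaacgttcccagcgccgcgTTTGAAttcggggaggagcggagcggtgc
CCNB2: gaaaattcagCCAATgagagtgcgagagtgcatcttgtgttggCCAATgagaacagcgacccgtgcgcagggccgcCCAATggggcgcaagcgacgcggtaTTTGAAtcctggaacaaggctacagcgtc
CDC20: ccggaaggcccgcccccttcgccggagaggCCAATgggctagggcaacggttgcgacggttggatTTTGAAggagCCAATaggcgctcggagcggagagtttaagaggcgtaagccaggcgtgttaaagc
CENPA: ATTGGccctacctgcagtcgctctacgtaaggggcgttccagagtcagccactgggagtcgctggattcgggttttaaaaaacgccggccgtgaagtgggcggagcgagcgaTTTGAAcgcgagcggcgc
CDCA8: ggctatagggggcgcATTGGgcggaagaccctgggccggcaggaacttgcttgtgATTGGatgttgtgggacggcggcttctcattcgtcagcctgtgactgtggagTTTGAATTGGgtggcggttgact
CCNB1: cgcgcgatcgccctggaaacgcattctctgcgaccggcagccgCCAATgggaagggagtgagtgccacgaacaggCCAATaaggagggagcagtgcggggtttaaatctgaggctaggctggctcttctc
KIF20A: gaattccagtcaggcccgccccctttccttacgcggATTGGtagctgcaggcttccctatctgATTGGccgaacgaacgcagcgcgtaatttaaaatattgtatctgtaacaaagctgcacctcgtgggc
ESPL1: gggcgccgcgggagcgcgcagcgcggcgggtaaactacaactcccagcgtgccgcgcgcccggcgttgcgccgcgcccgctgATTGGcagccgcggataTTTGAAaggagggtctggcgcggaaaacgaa
BUB1B: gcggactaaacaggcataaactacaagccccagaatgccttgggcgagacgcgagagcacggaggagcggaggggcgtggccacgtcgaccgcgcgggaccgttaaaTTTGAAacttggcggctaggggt
All 9 lie on the plus strand: PLK1 at chr16:23678759-23678888, CCNB2 at chr15:59105016-59105145, CDC20 at chr1:43358851-43358980, CENPA at chr2:26785926-26786055, CDCA8 at chr1:37692386-37692515, CCNB1 at chr5:69167020-69167149, KIF20A at chr5:138178982-138179111, ESPL1 at chr12:53268169-53268298 and BUB1B at chr15:40160939-40161068. Counted from the start, the first base of the CHR letters stood at -29 in PLK1 and CCNB2, -65 in CDC20, -18 in CENPA, and -23 in CDCA8 and BUB1B. In CDCA8 the CHR letters overlap an ATTGG, so its last capital run holds both. CCNB2 carried 3 CCAAT boxes, at -120, -87 and -54, and CCNB1 carried 2, at -87 and -55. CCNB1 and KIF20A, 2 of the members that fell most, had neither TTTGAA nor TTCGAA on either strand in the part shown. Variants of the CHR element with other letters were not searched for, so its absence is not shown. ESPL1, which was not called in either line, had both CHR and CCAAT letters, with the CHR letters at -31. The 9 windows are examples and do not stand for all members. CENPE, not shown, changed by -0.55 in H187 and -0.91 in H209, and its window had neither CHR nor CCAAT letters.

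Presence of the letters did not sort the members in a uniform way. In H209 the median log2 fold change was -0.46 for the 32 members with CCAAT letters and -0.16 for the 7 without, and in H187 it was -0.33 and -0.15. The values overlapped widely in H209. They ran from -0.92 (CCNB1) to 0.04 (ESPL1) with CCAAT letters and from -0.91 (CENPE) to 0.05 (NDC80) without. For CHR letters the order of the medians was the other way, with -0.41 for the 30 members that had them and -0.53 for the 9 without in H209, and with -0.26 and -0.34 in H187. A match of letters is a description of the window and does not show that a factor binds there. Members without a match may carry a variant of the element with other letters, so the CHR medians compare matches of these letters only.

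Cyclins, CDK1 and its phosphatases fell together: all 6 were lower in both lines. CCNB1 encodes cyclin B1, which switches on CDK1 at mitotic entry. It had 209.6, 204.5 and 222.5 CPM in the lurbinectedin libraries of H187, against 381, 346 and 315 CPM in DMSO (log2 fold change -0.71, SE 0.052, adjusted p = 2e-09, edgeR). In H209 it had 66.8, 67.0 and 69.2 CPM with lurbinectedin, against 131, 128 and 126 CPM with DMSO (log2 fold change -0.92, SE 0.034, adjusted p = 3.4e-26, edgeR). The groups did not overlap in either line, and the 3 lurbinectedin libraries lay closer together than the 3 DMSO libraries. CCNA2, cyclin A2, which acts in S phase and G2, had 133, 133 and 130.3 CPM with lurbinectedin, against 209.2, 197.5 and 196 CPM with DMSO in H209 (log2 fold change -0.61, SE 0.033, adjusted p = 6e-20, edgeR). In H187 it had 88.3, 89.45 and 89.1 CPM with lurbinectedin, against 117, 114 and 116 CPM with DMSO (log2 fold change -0.38, SE 0.043, adjusted p = 1.2e-06, edgeR). Again no library crossed over. CDK1, the kinase that drives mitotic entry, had 143, 147 and 148 CPM with lurbinectedin and 189.9, 169 and 163 CPM with DMSO in H187 (log2 fold change -0.25, SE 0.049, adjusted p = 0.00063, edgeR). In H209 the CDK1 values were 134, 126 and 122 CPM with lurbinectedin and 174, 171 and 167 CPM with DMSO (log2 fold change -0.42, SE 0.034, adjusted p = 2.7e-14, edgeR). Cyclin B1, its partner, fell further than the kinase itself in both lines, although the difference between the 2 genes was not tested. CCNB2, the other B-type cyclin, fell by about the same amount in both lines (log2 fold change -0.38 in H187 and -0.36 in H209). The phosphatases that remove the inhibitory phosphates of CDK1 moved less: CDC25B changed by -0.17 in H187 and -0.12 in H209, and CDC25C by -0.20 and -0.17. The CDC25C call in H209 was lost without DMSO replicate 1 or lurbinectedin replicate 1 (adjusted p = 0.054 and 0.08, edgeR).

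All 3 mitotic kinases of this group fell in both lines. PLK1, which promotes mitotic entry, centrosome maturation and exit from mitosis, had 71.5, 67.6 and 70.8 CPM with lurbinectedin and 128, 125 and 114 CPM with DMSO in H187 (log2 fold change -0.81, SE 0.049, adjusted p = 1.6e-10, edgeR). In H209 its libraries held 89.75, 99.85 and 94.9 CPM with lurbinectedin and 176, 176 and 176 CPM with DMSO (log2 fold change -0.89, SE 0.034, adjusted p = 1.5e-25, edgeR). That was the lowest log2 fold change of any member in H187, and in H209 it came after CCNB1 and CENPE. AURKA, Aurora A of the spindle poles, had 74.35, 75.7 and 78.7 CPM with lurbinectedin, against 119, 117 and 106 CPM with DMSO in H187 (log2 fold change -0.58, SE 0.049, adjusted p = 1.9e-08, edgeR). In H209 it had 59.1, 60.6 and 60.3 CPM with lurbinectedin, against 98.9, 99.02 and 92.0 CPM with DMSO (log2 fold change -0.69, SE 0.037, adjusted p = 3e-20, edgeR). The libraries of the 2 treatments stood apart in both lines. NEK2, a kinase of centrosome separation, fell less, by -0.27 in H187 and -0.24 in H209 on the log2 scale.

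**Figure D2:**
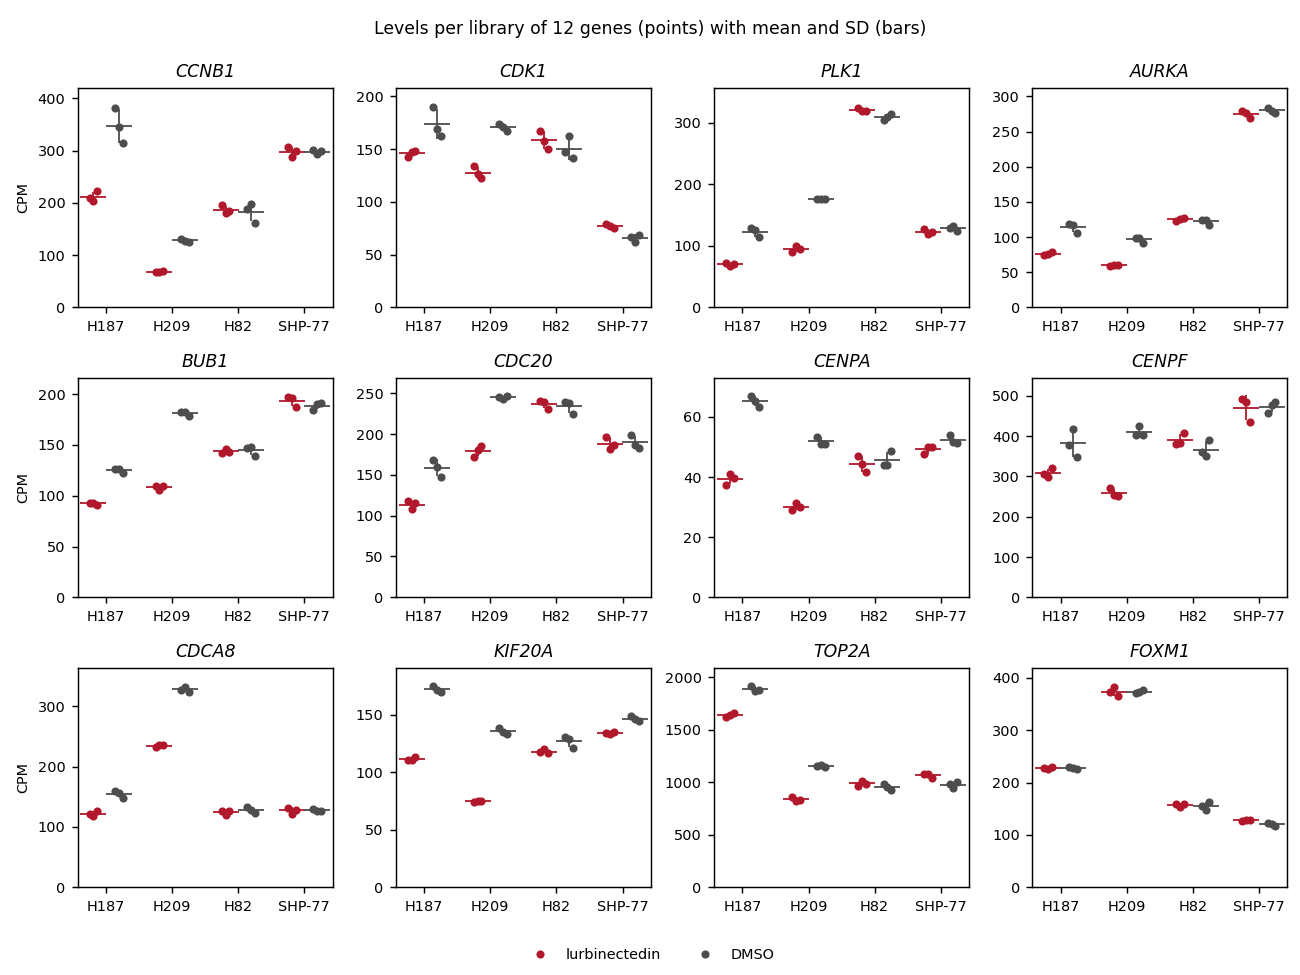
CPM (y axis, from 0) of 12 members in every library, with lurbinectedin (red) left of DMSO (grey) in each line; horizontal marks are means and vertical bars SD of 3 libraries. For PLK1, AURKA, CENPA and KIF20A the red points of H187 and H209 lie wholly under the grey ones, while FOXM1 averages 227.8 CPM with lurbinectedin and 228 CPM with DMSO in H187.

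Spindle checkpoint genes split by gene. BUB1, a kinetochore kinase of the checkpoint, had 109.7, 106 and 109.8 CPM with lurbinectedin and 182.5, 183 and 178 CPM with DMSO in H209 (log2 fold change -0.74, SE 0.032, adjusted p = 1.6e-23, edgeR). In H187 it had 93.0, 93.3 and 90.75 CPM with lurbinectedin, against 127, 127 and 122 CPM with DMSO (log2 fold change -0.44, SE 0.044, adjusted p = 1.9e-07, edgeR). There was no overlap in either line, and the fall was larger in H209, as tested further on. TTK, the kinase MPS1 that starts checkpoint signalling, changed by -0.32 in H187 and -0.31 in H209, past the threshold in both. BUB1B, which encodes BUBR1 of the checkpoint complex, had a log2 fold change of -0.05 in H187 (adjusted p = 0.47, edgeR) and -0.08 in H209 (adjusted p = 0.037, edgeR). MAD2L1, the MAD2 protein that holds CDC20 inactive, had a log2 fold change of -0.09 in H187 (adjusted p = 0.18, edgeR) and -0.15 in H209 (adjusted p = 0.00012, edgeR). Thus 2 of these 4 genes were lower in H187 and 4 of 4 in H209, and the BUB1B call in H209 was lost in the authors' deposited table (FDR 0.074) and without DMSO replicate 2 or lurbinectedin replicate 1 or 3 (adjusted p = 0.10 to 0.22, edgeR).

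Of the genes that trigger anaphase, 3 of 4 fell in both lines. CDC20 activates the anaphase-promoting complex, a ubiquitin ligase, once the checkpoint is satisfied. It had 117, 108 and 115 CPM with lurbinectedin and 168, 160.2 and 148 CPM with DMSO in H187 (log2 fold change -0.48, SE 0.05, adjusted p = 3e-07, edgeR), and 172, 181 and 185 CPM with lurbinectedin and 246, 243 and 246 CPM with DMSO in H209 (log2 fold change -0.45, SE 0.033, adjusted p = 8e-16, edgeR). In the fit of both lines, the response in H209 minus that in H187 was 0.04, and the treatments did not overlap in either line. PTTG1, securin, which holds separase inactive until anaphase, had 119, 120.0 and 123 CPM with lurbinectedin and 179.8, 171 and 174 CPM with DMSO in H209 (log2 fold change -0.53, SE 0.033, adjusted p = 2.6e-18, edgeR). In H187 it had 204, 205.5 and 216 CPM with lurbinectedin, against 268, 271 and 254 CPM with DMSO (log2 fold change -0.34, SE 0.04, adjusted p = 1.7e-06, edgeR). Securin was lower in every lurbinectedin library. UBE2C, the ubiquitin-conjugating enzyme that works with this ligase, fell by 0.38 on the log2 scale in H187 and by 0.52 in H209. ESPL1, separase, the protease that cuts cohesin, had log2 fold changes of 0.02 in H187 and 0.04 in H209 (adjusted p = 0.73 and 0.36, edgeR), so securin fell while the call for separase was absent in both lines.

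Centromere and kinetochore genes held 3 of the larger falls and 1 gene that was not called. CENPA, the histone H3 variant that marks centromeres, had 37.4, 41.1 and 39.8 CPM with lurbinectedin and 66.9, 65.3 and 63.4 CPM with DMSO in H187 (log2 fold change -0.72, SE 0.047, adjusted p = 3.2e-10, edgeR). In H209 it had 28.95, 31.2 and 29.9 CPM with lurbinectedin and 53.4, 51.0 and 51.1 CPM with DMSO (log2 fold change -0.79, SE 0.045, adjusted p = 3.7e-19, edgeR). Every lurbinectedin library of both lines was under every DMSO library of its line. CENPF, a large protein of the outer kinetochore, had 271, 253.5 and 251 CPM with lurbinectedin and 404, 425 and 403 CPM with DMSO in H209 (log2 fold change -0.67, SE 0.032, adjusted p = 4.5e-22, edgeR). In H187 it had 307, 298 and 319.7 CPM with lurbinectedin, against 378.5, 418 and 349 CPM with DMSO (log2 fold change -0.31, SE 0.049, adjusted p = 7.5e-05, edgeR). In H187 the DMSO libraries were spread widely, with replicate 3 nearest to the treated ones. CENPE, a kinetochore kinesin that moves chromosomes to the spindle equator, changed by -0.55 in H187 and -0.91 in H209. NUF2 and NDC80, partners in the complex that grips microtubules, differed in their calls: NUF2 changed by -0.25 in H187 and -0.16 in H209, past the threshold in both, and NDC80 had log2 fold changes of -0.04 in H187 and 0.05 in H209 (adjusted p = 0.49 and 0.2, edgeR). The NUF2 libraries of the 2 treatments overlapped in H209 but not in H187.

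Within the chromosomal passenger complex, which corrects faulty attachments, 3 of 4 genes fell in both lines and the kinase gene had the smallest change. CDCA8, borealin, had 232, 235 and 236 CPM with lurbinectedin and 328, 333 and 323.5 CPM with DMSO in H209 (log2 fold change -0.48, SE 0.03, adjusted p = 5.8e-18, edgeR). In H187 it had 121, 119 and 126 CPM with lurbinectedin, against 160.2, 156 and 148 CPM with DMSO (log2 fold change -0.34, SE 0.044, adjusted p = 6.1e-06, edgeR). Its groups did not overlap in either line. BIRC5, survivin, changed by -0.29 in H187 and -0.32 in H209, and INCENP, the scaffold of the complex, by -0.22 and -0.37. AURKB, the Aurora B kinase, had a log2 fold change of -0.04 in H187 (adjusted p = 0.57, edgeR) and of -0.14 in H209 (adjusted p = 0.0033, edgeR). Aurora A thus changed by -0.69 and Aurora B by -0.14 in the same H209 libraries.

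Kinesins ranged widely, with 5 of 6 lower in H187 and 6 of 6 in H209. KIF20A, the midzone kinesin MKLP2 needed for cytokinesis, had 111, 111 and 114 CPM with lurbinectedin and 175, 171.5 and 169 CPM with DMSO in H187 (log2 fold change -0.62, SE 0.041, adjusted p = 4.2e-10, edgeR). In H209 it had 74.45, 75.3 and 75.2 CPM with lurbinectedin, against 138, 135 and 133 CPM with DMSO (log2 fold change -0.85, SE 0.033, adjusted p = 1.2e-25, edgeR). Replicates of KIF20A were tight, and the groups lay far apart. KIF14, also of the midzone, changed by -0.46 in H187 and -0.68 in H209, and KIF23, a centralspindlin subunit, by -0.26 and -0.49. KIF4A, a chromosome-bound kinesin, changed by -0.26 and -0.23. The log2 fold changes nearest 0 were those of KIF11, the Eg5 motor that separates the spindle poles (-0.10 and -0.15), and KIF2C, a kinesin that takes microtubules apart (-0.10, not called in H187, and -0.14). The KIF11 call in H187 was close to the threshold (adjusted p = 0.048, edgeR) and was lost in the authors' deposited table (FDR 0.09) and without any single library but DMSO replicate 1 (up to 0.2, edgeR).

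Of the 10 other spindle and cytokinesis genes, 9 were lower in H187 and 10 in H209. DLGAP5, HURP, which stabilises spindle fibres near chromosomes, had 83.4, 87.02 and 87.2 CPM with lurbinectedin and 135, 131 and 129 CPM with DMSO in H209 (log2 fold change -0.62, SE 0.033, adjusted p = 3e-20, edgeR). In H187 it had 103, 105 and 105 CPM with lurbinectedin, against 140.5, 131 and 128 CPM with DMSO (log2 fold change -0.35, SE 0.046, adjusted p = 7e-06, edgeR). No lurbinectedin library reached a DMSO library. ASPM, a spindle pole protein, changed by -0.43 in H187 and -0.57 in H209, and HMMR, which also acts at spindle poles, by -0.34 and -0.44. ECT2, the exchange factor that activates RhoA for the cleavage furrow, changed by -0.38 and -0.55. PRC1, the midzone bundling protein, changed by -0.17 and -0.40, and ANLN, the furrow scaffold anillin, by -0.15 and -0.29. CKAP2, a microtubule-associated protein, changed by -0.27 and -0.23, and GTSE1, which binds microtubules and p53, by -0.22 and -0.23. TPX2, the activator of Aurora A on the spindle, changed by -0.26 and -0.13. NUSAP1, a spindle bundling protein, was the member of this group without a call in H187 (0.02) and had the smallest change in H209 (-0.11). In H187 the PRC1 call was lost without lurbinectedin replicate 2 (adjusted p = 0.055, edgeR) and the ANLN call without lurbinectedin replicate 3 (0.069).

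The remaining 3 members were a transcription factor, an enzyme and an adaptor. FOXM1, the activator of many of these genes, had 228, 225 and 230.1 CPM with lurbinectedin and 230.5, 227 and 226 CPM with DMSO in H187 (log2 fold change -0.00, SE 0.036, adjusted p = 0.98, edgeR). In H209 it had 373, 383 and 366 CPM with lurbinectedin and 372, 373 and 378 CPM with DMSO (log2 fold change -0.00, SE 0.029, adjusted p = 1, edgeR). The FOXM1 libraries overlapped in both lines, with an SE of the log2 fold change of 0.036 in H187 and 0.029 in H209. TOP2A, topoisomerase II alpha, which untangles sister chromatids, had 1623, 1645 and 1660 CPM with lurbinectedin and 1919, 1873 and 1881 CPM with DMSO in H187 (log2 fold change -0.20, SE 0.03, adjusted p = 4e-05, edgeR). In H209 it had 861, 825 and 830.0 CPM with lurbinectedin, against 1159, 1163 and 1144 CPM with DMSO (log2 fold change -0.46, SE 0.024, adjusted p = 9.1e-21, edgeR). TOP2A was lower in all treated libraries of both lines, and by more in H209. CDCA3, an adaptor that helps degrade the mitosis inhibitor WEE1, changed by -0.48 in H187 and -0.52 in H209.

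The 2 ISL1-high lines gave closely matching lists. All 37 members called in H187 were also called in H209, in the same direction, and 9.57% of the 13042 genes measured in both lines were lower in both. A further 5 members (BUB1B, MAD2L1, AURKB, KIF2C and NUSAP1) were called in H209 only, 3 (ESPL1, NDC80 and FOXM1) in neither, and none in opposite directions. Across the 45 members the log2 fold changes of the 2 lines had a Pearson r of 0.899 and a Spearman rho of 0.889, against 0.616 and 0.591 over all 13042 shared genes. These are descriptions across genes, which are not independent replicates, and members of 1 line share their 6 libraries. Within each line the effect size was only weakly ordered by gene length, GC content, gene span or DMSO level, with Spearman rho between 0.014 and 0.206 over 45 members in H187 and H209. Members spanned 4.25 to 130.9 kb of genome, and all genes up to that span had a median log2 fold change of 0.02 in both lines.

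**Figure D3:**
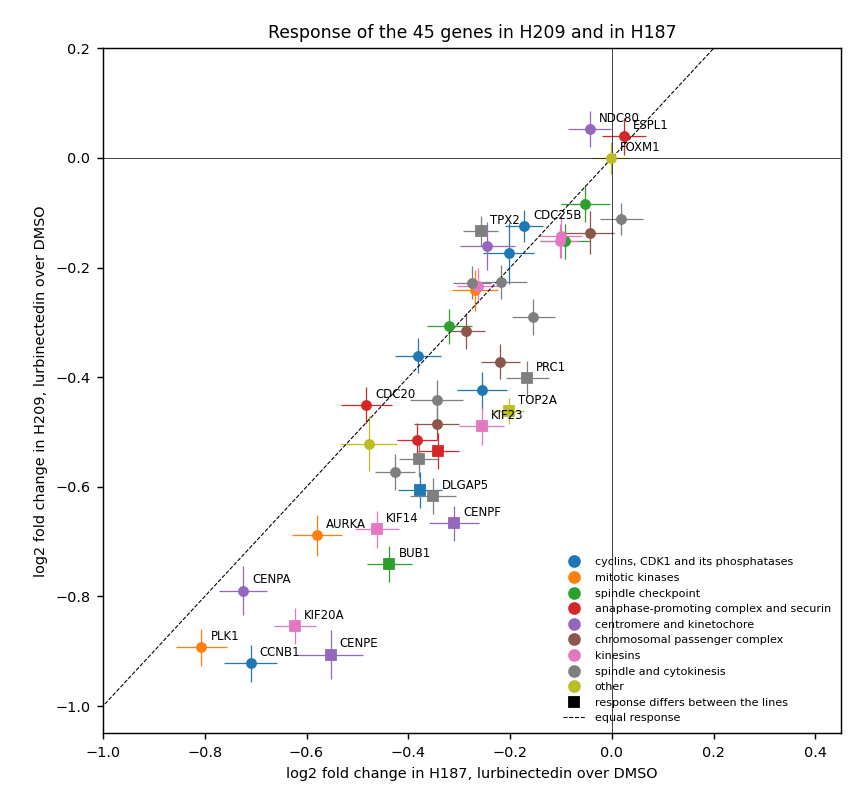
Log2 fold change (lurbinectedin over DMSO) of the 45 members in H209 (y axis) and H187 (x axis), coloured by role, with bars of 1 standard error; the dashed line marks equal responses, and squares mark the 13 members whose response differed between the lines. Pearson r was 0.899, and 32 of 45 members had the lower value in H209.

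Falls were larger in H209 for part of the members. The response in H209 minus that in H187 was past the threshold for 13 members: 12 had the lower log2 fold change in H209, where 4.42% of the genes tested did, and 1 had the higher one, where 5.93% did. The median difference over the members was -0.09, and 32 of 45 had a lower log2 fold change in H209 than in H187. By the smallest p these were TOP2A (difference -0.25, SE 0.037, adjusted p = 1.5e-05, edgeR), BUB1 (-0.30, SE 0.05, adjusted p = 9.2e-05, edgeR) and CENPF (-0.35, SE 0.064, adjusted p = 0.00032, edgeR). They were followed by DLGAP5 (-0.26), KIF20A (-0.22) and CCNA2 (-0.22). The 6 others were PRC1, KIF23, CENPE, KIF14, PTTG1 and ECT2, with differences of -0.35 (CENPE) to -0.16 (ECT2). TPX2 was the gene with the larger fall in H187 (difference 0.13, SE 0.043, adjusted p = 0.049, edgeR), and that call was lost with RLE size factors (adjusted p = 0.063) and without any single library but H187 DMSO replicate 3 (up to 0.17, edgeR). The PTTG1 call was lost without H187 lurbinectedin replicate 3, H209 DMSO replicate 1 or H209 lurbinectedin replicate 1 (adjusted p = 0.054 to 0.082, edgeR). The ECT2 call was lost without H187 DMSO replicate 2, H187 lurbinectedin replicate 2 or 3, or H209 lurbinectedin replicate 2 or 3 (adjusted p = 0.052 to 0.084, edgeR). For PLK1 the difference was -0.08 (adjusted p = 0.46, edgeR), for CENPA -0.06 (0.65), and for CDC20 0.04 (0.77). CCNB1 stood just outside the threshold, at -0.21 (adjusted p = 0.052, edgeR), and inside it with RLE size factors (0.042).

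In the ISL1-low lines most members did not pass the test. In H82, 2 members were higher and 1 was lower, where 1.55% of all genes were higher and 1.38% lower, and the median over the 45 was -0.01. CDC25B had 159.6, 156 and 161.5 CPM with lurbinectedin and 133, 132.5 and 138 CPM with DMSO in H82 (log2 fold change 0.24, SE 0.039, adjusted p = 0.0023, edgeR). UBE2C had 198, 197 and 198 CPM with lurbinectedin, against 175, 171 and 179 CPM with DMSO (log2 fold change 0.18, SE 0.037, adjusted p = 0.012, edgeR). Both rose, with every lurbinectedin library above every DMSO library. CENPE was lower, at 42.2, 37.65 and 41.0 CPM with lurbinectedin and 46.6, 47.1 and 45.03 CPM with DMSO (log2 fold change -0.20, SE 0.05, adjusted p = 0.031, edgeR). With any 1 lurbinectedin library or DMSO replicate 1 left out, CDC25B was the only member called, and without DMSO replicate 2 the CENPE call was lost (adjusted p = 0.075, edgeR). Without DMSO replicate 3 there were 9 calls, with ESPL1, CENPF and INCENP added among the higher and TTK, KIF20A and ANLN among the lower. With a correction for transcript GC content, chosen after seeing the data, 20.5% of the calls over all genes in H82 were higher, against 52.9% without it, and 2 members were higher and none lower. Groups overlapped for 34 of 45 members, with 6 wholly lower and 5 wholly higher, and 10.6% and 11.3% of all genes were so.

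In SHP-77, 4 members were higher and 2 lower, where 1.98% of all genes were higher and 3.21% lower, and the median was 0.01. CDK1 had 78.7, 77.3 and 75.5 CPM with lurbinectedin and 67.0, 62.3 and 69.0 CPM with DMSO (log2 fold change 0.22, SE 0.04, adjusted p = 0.0012, edgeR), the opposite sign to its change in H187 and H209. UBE2C had 172, 166.5 and 166 CPM with lurbinectedin, against 152, 150.1 and 144 CPM with DMSO (log2 fold change 0.18, SE 0.029, adjusted p = 0.00047, edgeR), and CDC25B had 467, 460.5 and 464 CPM with lurbinectedin, against 431, 423 and 416 CPM with DMSO (log2 fold change 0.13, SE 0.027, adjusted p = 0.0043, edgeR). These 3 rose without overlap. TOP2A had 1078, 1083 and 1043 CPM with lurbinectedin and 980.0, 945 and 1002 CPM with DMSO (log2 fold change 0.13, SE 0.03, adjusted p = 0.011, edgeR). CENPE had 41.0, 40.8 and 33.9 CPM with lurbinectedin, against 44.5, 47.7 and 46.6 CPM with DMSO (log2 fold change -0.27, SE 0.062, adjusted p = 0.012, edgeR). KIF20A had 134.5, 133 and 135 CPM with lurbinectedin, against 149, 146 and 145 CPM with DMSO (log2 fold change -0.13, SE 0.027, adjusted p = 0.0063, edgeR). The values of these 3 did not overlap between treatments: TOP2A rose, and CENPE and KIF20A, which fell in H187 and H209, fell here too. The TOP2A call was lost without DMSO replicate 2 or lurbinectedin replicate 1 or 2 (adjusted p = 0.061 to 0.088, edgeR), and the CENPE call without DMSO replicate 2 or lurbinectedin replicate 3 (0.086 and 0.055). Over the 45, all 3 lurbinectedin libraries were lower than DMSO for 3 members and higher for 10, where 11.6% and 10.4% of all genes were so.

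Some members thus moved alike in both ISL1-low lines. CDC25B and UBE2C were higher and CENPE lower in each of H82 and SHP-77, and CENPE was lower in all 4 lines. Of these calls, those of CENPE in H82 and SHP-77 and of UBE2C in H82 depended on single libraries. The CENPE call in H82 was also lost with the correction for transcript GC content (adjusted p = 0.18, edgeR). PLK1 was not called in either, with 320.3 ± 2.86 CPM with lurbinectedin and 309 ± 5.07 with DMSO in H82 (SD, n = 3 each), and 123 ± 4.67 with lurbinectedin and 128 ± 4.25 with DMSO in SHP-77. Its adjusted p was 0.48 in H82 and 0.33 in SHP-77 (edgeR). CCNB1 averaged 186.5 ± 7.70 CPM with lurbinectedin and 183 ± 18.2 with DMSO in H82, and 298 ± 9.985 with lurbinectedin and 297 ± 3.91 with DMSO in SHP-77. Across the 45 members the H82 and SHP-77 responses had a Pearson r of 0.67 and a Spearman rho of 0.579, and pairs of an ISL1-high with an ISL1-low line had a Pearson r of 0.19 to 0.488.

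**Figure D4:**
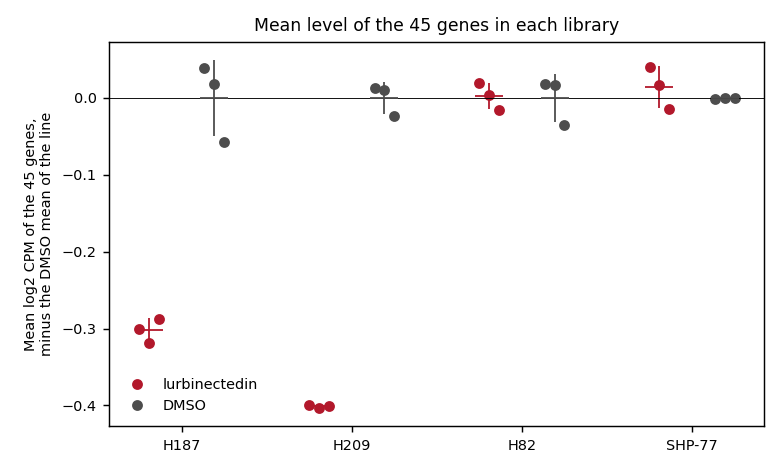
Mean log2 CPM of the 45 genes in each library minus the DMSO mean of its line (y axis), with lurbinectedin (red) left of DMSO (grey); marks and bars are the mean and SD of 3 libraries. The H187 and H209 lurbinectedin libraries lie between -0.40 and -0.29, and all other libraries between -0.06 and 0.04.

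Averaged over the 45, each treated library of the ISL1-high lines stood under its DMSO libraries. The mean log2 CPM relative to the DMSO mean was -0.30, -0.32 and -0.29 with lurbinectedin and 0.04, 0.02 and -0.06 with DMSO in H187. In H209 it was -0.40, -0.40 and -0.40 with lurbinectedin and 0.01, 0.01 and -0.02 with DMSO. The ISL1-low lines did not separate: H82 had 0.02, 0.00 and -0.02 with lurbinectedin and 0.02, 0.02 and -0.04 with DMSO. SHP-77 had 0.04, 0.02 and -0.01 with lurbinectedin and 0.00 in each DMSO library. DMSO replicate 3 was the lowest of its group in H187, H209 and H82. The summed neuroendocrine markers were also lower with lurbinectedin in H187 (1292 to 1365 CPM, against 1445 to 1493 with DMSO) but overlapped in H209 (1381 to 1411 CPM, against 1292 to 1405 with DMSO), and their part in the mitotic result was not tested.

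The response was set against itself between the classes in 1 fit of all 24 libraries, by subtracting the average effect over the ISL1-low lines from the average over the ISL1-high lines. It was lower for 40 of 45 members and higher for none, where 15.5% of the 11408 genes tested were lower and 15.9% higher, with a median of -0.37 over the members and 0.00 over all genes. PLK1 differed by -0.84 (SE 0.039, adjusted p = 3.5e-19, edgeR) and CCNB1 by -0.83 (SE 0.052, adjusted p = 1.8e-15, edgeR). CENPA (-0.69), AURKA (-0.64), UBE2C (-0.62), KIF20A (-0.62) and BUB1 (-0.60) came next. CDK1 differed by -0.49, CDC20 by -0.47, TOP2A by -0.42 and CDC25B by -0.33. Not called were AURKB, ESPL1, FOXM1, NDC80 and BUB1B, from -0.10 (adjusted p = 0.062, edgeR) to -0.01 (0.85). Single libraries left out removed the calls of CDC25C and NUSAP1 only (adjusted p up to 0.068 and 0.13, edgeR). This contrast uses the same libraries as the comparisons within lines and is not a separate test of them, and it holds for these 4 lines.

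In DMSO, the typical level of the members differed little between the 4 lines, while single genes differed more. Per kilobase of transcript the median over the 45 in DMSO was 47.6 CPM for H187, 49.3 for H209, 43.0 for H82 and 44.5 for SHP-77. TOP2A was the highest in each line (H187 340.2 CPM per kb, H209 199, H82 186.8, SHP-77 177) and CENPE the lowest (6.79, 6.82, 6.03 and 5.60 CPM per kb in the same lines). The highest line was a median of 1.79 times the lowest for a member. AURKB varied most, at 170.1 ± 5.31 CPM per kb in H82, 67.3 ± 2.77 in SHP-77, 52.7 ± 0.765 in H209 and 37.5 ± 2.17 in H187 (SD, n = 3 each), a ratio of 4.53, and no neighbours in that order overlapped within 1 SD. ECT2 varied least, with a ratio of 1.21.

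Other genes of the same processes were counted from 6 lists of mitotic genes, with a list of G1 and S phase genes for contrast. These lists were also chosen with earlier results of these data known. Each count is to be read beside the share of all genes tested, which was 12.2% higher and 12.7% lower in H187 and 22.7% higher and 22.5% lower in H209. Among 20 other mitotic kinesins and cytokinesis genes, 12 were lower and 2 higher in H187, and 14 were lower and 2 higher in H209. FAM83D, which recruits a kinase to the spindle, averaged 50.8 ± 1.93 CPM with lurbinectedin and 73.8 ± 0.541 with DMSO in H187 (log2 fold change -0.54), and 48.2 ± 1.70 with lurbinectedin and 72.7 ± 2.40 with DMSO in H209 (-0.59). PSRC1, a spindle-associated protein, fell by 0.36 in H187 and 0.52 in H209 on the log2 scale. KIF24, a kinesin of centrioles, rose by 0.30 and 0.45.

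Other kinetochore and centromere genes had a median log2 fold change of 0.00 in H187 and 0.07 in H209. Of 30, 8 were higher and 6 lower in H187, and 13 were higher and 8 lower in H209, where the lower calls made up a share not far from that of all genes. SGO2, shugoshin 2, which protects centromeric cohesin, fell by 0.36 in H187 and 0.57 in H209. SKA2, a subunit of a complex that couples kinetochores to microtubules, fell by 0.25 in both. CENPU, of the inner kinetochore, rose by 0.35 in H187 and 0.46 in H209, and CENPM, also of the inner kinetochore, by 0.17 and 0.63 (adjusted p = 0.024 and 7.3e-15, edgeR).

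The anaphase-promoting complex, condensin and cohesin were counted by subunit. Of 17 anaphase-promoting complex genes, 2 were higher and 3 lower in H187, and 1 was higher and 8 lower in H209, with medians of -0.07 in both. UBE2S, which extends ubiquitin chains for this ligase, averaged 573 ± 10.0 CPM with lurbinectedin and 745 ± 37.2 with DMSO in H187 (log2 fold change -0.38), and it fell by 0.41 in H209. FBXO5, EMI1, which inhibits the ligase, rose by 0.27 in H187 and 0.26 in H209. Of 15 condensin and cohesin genes, 3 were higher and 3 lower in H187, and 1 was higher and 4 lower in H209, with medians of 0.01 and -0.01. STAG1, a cohesin subunit, was lower in all 4 lines, with log2 fold changes of -0.30 in H187 and -0.26 in each of H209, H82 and SHP-77.

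The MuvB, DREAM and B-MYB genes had a median of -0.01 in H187 and 0.00 in H209 (log2 fold change), and the regulators of mitotic entry one of -0.09 in H187 and -0.06 in H209. Of 13 MuvB, DREAM and B-MYB genes, 4 were higher and 1 lower in H187, and 5 were higher and 2 lower in H209, so lower calls did not exceed the share over all genes. MYBL2, B-MYB, rose by 0.26 in H187 and 0.18 in H209, and also by 0.20 in SHP-77 (adjusted p = 0.00025, edgeR). RBL1, the p107 pocket protein of DREAM, rose by 0.29 and 0.30. Among regulators of mitotic entry, 3 of 15 were higher and 5 lower in H187, and 5 of 14 were higher and 5 lower in H209. PKMYT1, the kinase that holds CDK1 inactive, averaged 127 ± 2.09 CPM with lurbinectedin and 75.9 ± 5.78 with DMSO in H187 (log2 fold change 0.75). It averaged 38.6 ± 1.79 CPM with lurbinectedin and 19.5 ± 0.178 with DMSO in H209 (0.99), and rose by 0.27 in SHP-77. CDC25A, the member of the CDC25 family that acts from G1 on, rose by 0.35 in H187 and 0.51 in H209, whereas CDC25B and CDC25C fell. CCNF, cyclin F, a substrate receptor of a ubiquitin ligase, fell by 0.25 in H187 (adjusted p = 4.4e-05, edgeR) and 0.55 in H209 (2.6e-17).

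The G1 and S phase genes stood on the other side. Of 25, 23 were higher in H187 and 24 in H209, and none was lower, with medians of 0.30 in both. CDT1, a licensing factor of replication, averaged 141 ± 3.83 CPM with lurbinectedin and 92.2 ± 2.82 with DMSO in H187 (log2 fold change 0.62), and 248 ± 5.86 with lurbinectedin and 140.4 ± 6.45 with DMSO in H209 (0.82). RRM2, a ribonucleotide reductase subunit, averaged 1005 ± 23.1 CPM with lurbinectedin and 712 ± 11.5 with DMSO in H187 (0.50). In H82, 1 of these 25 was higher and 1 lower, where 1.55% of all genes were higher and 1.38% lower. In SHP-77, 5 of the 25 were higher and none was lower, where 1.98% of all genes were higher and 3.21% lower. The higher calls in SHP-77 thus exceeded the share over all genes, in the same direction as in H187 and H209.

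**Figure D5:**
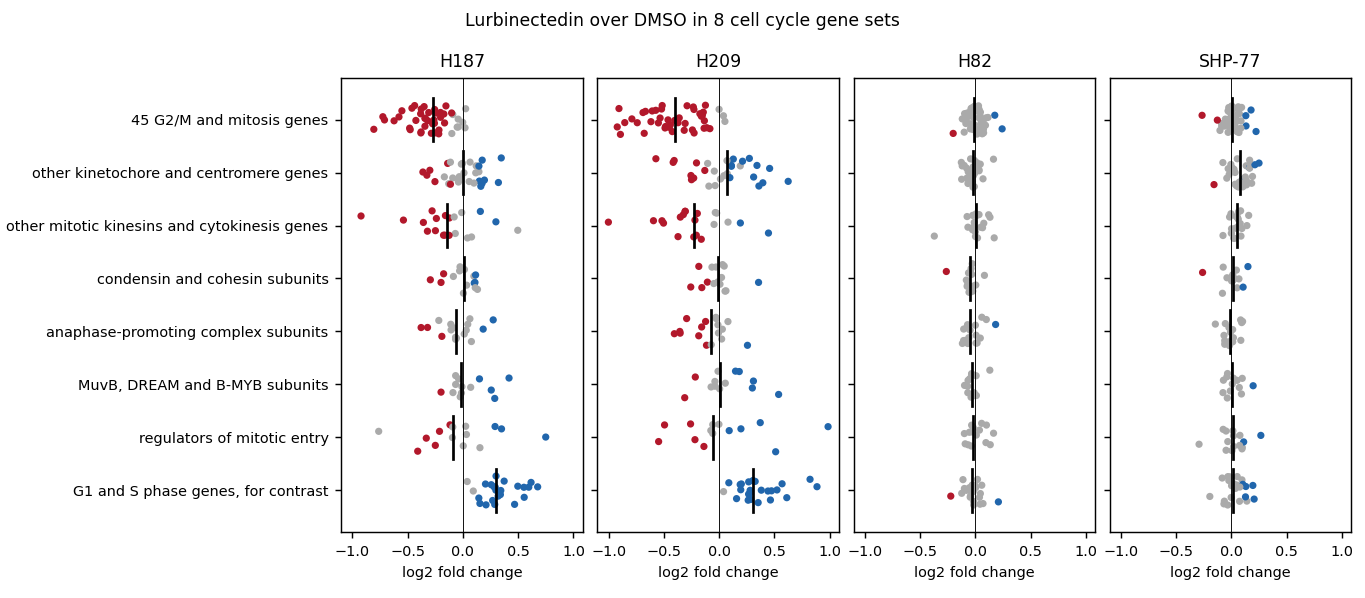
Log2 fold change (x axis, lurbinectedin over DMSO) of each gene of the 45 members and of 7 other cell cycle lists (y axis) in the 4 lines; red genes were lower and blue ones higher at an adjusted p under 0.05, grey ones were not called, and black bars are medians. In H187 and H209 the members lie to the left, with medians of -0.27 and -0.40, and the G1 and S phase genes to the right, with medians of 0.30 in both.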

How the data were processed

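Gene-level RNA was measured in 24 samples (8 groups of 3), which the series' design calls biological triplicates. Per the labels' protocols, 100 ng of total RNA went into a stranded library after ribosomal RNA depletion. Per the submitters' processing notes, STAR 2.7.10a, featureCounts, Subread 2.0.3 and edgeR 4.2.0 were used with hg38; the annotation, strand setting and low-count filter are not given in the sources used here. The authors deposited 1 table per line with raw counts, log2 CPM, log2 fold changes, p-values and FDR; the counts were used, and the authors' log2 fold change and FDR served as an alternative.

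Counts were fitted in R 4.3.3 with edgeR 4.0.16: filterByExpr (minimum count 10, minimum total count 15), TMM scaling, glmQLFit and glmQLFTest, adjusted by Benjamini-Hochberg over all genes at 0.05. Each line was fitted on its 6 samples. The response in H209 minus H187 was fitted on 12 samples (13042 genes), and ISL1-high minus ISL1-low lines on 24 samples (11408 genes). Levels are CPM on TMM-scaled library sizes, and levels between genes are per kilobase of the deposited gene length. Alternatives were RLE size factors, no filter or a mean of at least 1 CPM, DESeq2 1.42.0, a replicate block, a joint fit of all 24 samples, the authors' table, and each library left out once; a lowess correction for transcript GC content (span 0.3) was added after seeing the data. Scripts were tested on simulated data.

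The members and lists were chosen with earlier results of these data known, so their counts are descriptions beside the share of all genes called. All 45 members could be named; library values were given for a panel (CCNB1, CDK1, PLK1, AURKA, CENPA, CDC20, FOXM1 and TOP2A), for the member of each role with the smallest p in H209, for the 6 members with the smallest p in H209 minus H187, and for calls in H82 and SHP-77. From each other list, up to 3 genes by the smallest p in H187 and in H209 could be named. One marker of the neuroendocrine list is not reported here. SKA1 was not analysed here, and older symbols were matched through RefSeq synonyms. Promoter windows are RefSeq's.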

Additional observations from a re-analysis of the deposited data

Results flagged for a closer look

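The size of the response differed between lines by a test of the difference itself. Between H209 and H187 it differed for 13 of 45 members. The difference in log2 fold change, H209 minus H187, was -0.35 for CENPE and CENPF, -0.30 for BUB1, -0.26 for DLGAP5, -0.25 for TOP2A, -0.23 for KIF23 and PRC1, -0.22 for CCNA2 and KIF20A, -0.21 for KIF14, -0.19 for PTTG1, -0.16 for ECT2 and 0.13 for TPX2. Both lines have the same label class, ISL1 high.

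Between the mean of H187 and H209 and the mean of H82 and SHP-77, the response differed for 40 of 45 members. Of those with library values in the text, the difference was -0.84 for PLK1, -0.83 for CCNB1, -0.69 for CENPA, -0.64 for AURKA, -0.62 for UBE2C, -0.49 for CDK1, -0.47 for CDC20, -0.42 for TOP2A and -0.33 for CDC25B. It was also -0.62 for KIF20A, -0.60 for BUB1, -0.53 for CENPF, -0.52 for CCNA2, -0.49 for CENPE, -0.47 for PTTG1, -0.44 for DLGAP5 and -0.39 for CDCA8. For CDC25B and UBE2C the direction was opposite in H82 and SHP-77, where both genes passed the test as higher, and for CDK1 and TOP2A in SHP-77. The UBE2C call in H82 was lost without DMSO replicate 1 or any 1 lurbinectedin library, and the TOP2A call in SHP-77 without DMSO replicate 2 or lurbinectedin replicate 1 or 2, and with a replicate block. Groups of 3 were not searched for single outlying libraries.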

How the results depend on the processing

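No member's call changed direction under any alternative run. With 1 library left out, the number of members called was between 35 and 37 for H187, between 40 and 42 for H209, between 1 and 9 for H82, between 4 and 7 for SHP-77, 10 to 16 for H209 minus H187, and 38 to 41 for ISL1-high minus ISL1-low lines. The highest count in H82 came without DMSO replicate 3; the cause was not tested. Under all other alternatives the counts were 36 to 38, 41 to 42, 2 to 4, 5 to 7, 10 to 17 and 39 to 41, in the same order. Called under every setting were 34 of 37 members in H187, 40 of 42 in H209, 1 of 3 in H82 (CDC25B), 4 of 6 in SHP-77, 10 of 13 for H209 minus H187 and 38 of 40 between the classes. The replicate numbers did not pair the samples in a uniform way: same-numbered libraries had correlations of their deviations from the group means between -0.392 and 0.414. Lurbinectedin 1 with DMSO 2, 2 with 3, and 3 with 1 had 0.392, 0.539 and 0.469 in H187. In the same order they had 0.094, 0.319 and 0.368 in SHP-77, 0.415, 0.078 and -0.207 in H82, and 0.02, 0.072 and 0.089 in H209. No fit used this order, and whether such libraries belong together was not tested. With the replicate number as a block, 36 members were called in H187, and the calls of PTTG1, ECT2 and TPX2 for H209 minus H187 were lost (adjusted p = 0.056, 0.078 and 0.095, edgeR), as were those of TOP2A in SHP-77 (0.057), KIF11 in H187 (0.11) and NUSAP1 between the classes (0.058).

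Depth was not a limit for single members, which had 407 or more counts in each library. With 3 libraries per group, small changes are the weak point. In simulated data on all genes tested, 100 genes per line were changed by 0.3 on the log2 scale, and 64% to 70% of them were recovered. Far fewer genes were changed there than were called in H187 and H209, and the share recovered depends on how many genes change. It was also not worked out for the members alone, so it does not give their rate of missed calls. Among members in the ISL1-low lines, the largest SE of a log2 fold change was 0.066 (CDC25C in H82). The smallest called changes there were -0.13 (KIF20A in SHP-77) and 0.18 (UBE2C in H82). A missed call in H82 or SHP-77 still does not show that a gene did not change, as a small change can be missed. Each class of lines holds 2 lines, so nothing here extends to other ISL1-high or ISL1-low lines.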
